A study of Mus musculus with 16 samples.

Results

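Adrb1, Adra1a, Adra1b, Agtr1a, Ace, Ednra, Ednrb and Grk5 belong to the adrenergic, angiotensin and endothelin signaling systems of the heart. They were taken by gene symbol and make up 8 of the 55573 genes in the count table. All 8 passed the filter on low counts that left 19955 genes for testing. RNA-seq gene counts were available for ventricles from 16 male mice, with 1 library per heart and 4 hearts in each of 4 groups. Every mouse carried the aMHC-MerCreMer transgene, a tamoxifen-activated Cre recombinase that is driven in cardiomyocytes, and floxed alleles of Trbp (Trbp-Flox/Flox). Trbp, whose gene symbol is Tarbp2, is an RNA-binding partner of Dicer. Trbp-cKO mice received tamoxifen at 30 mg/kg daily for 5 days from 4 weeks of age, and control mice received corn oil on the same schedule. Each set of mice then had either transverse aortic constriction (TAC), which narrows the aorta and overloads the left ventricle with pressure, or a sham operation without ligation. Hearts were taken about 8 weeks after surgery, at 16 weeks of age. Tamoxifen exposure, activation of the Cre recombinase and loss of Trbp cannot be told apart in these groups. Tamoxifen-treated mice without Cre, or with Cre but without floxed alleles, were not analysed here.

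Catecholamines released by sympathetic nerves act on beta-adrenergic receptors, which raise cyclic AMP through the G protein Gs, and on alpha1-adrenergic receptors, which activate phospholipase C through Gq. Angiotensin II, made from angiotensin I by angiotensin-converting enzyme, and the endothelins act on further Gq-coupled receptors in cardiomyocytes and in the vessel wall and stroma. G protein-coupled receptor kinases phosphorylate occupied receptors so that arrestins bind them, and prolonged drive through these pathways is a familiar part of hypertrophy and heart failure.

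The sequences just upstream of Grk5 and Ace are shown because these were the members that passed the test in at least 1 comparison. RefSeq promoter entries on GRCm38.p6 were matched by symbol for 6 of the 8 members, with no entry for Adra1a and Agtr1a. Each window holds 247 bases, from 250 to 4 bases before the RefSeq start, on the plus strand for both genes. Grk5 lies at chr19:60889749-61095968 and its window at chr19:60889499-60889745. Ace lies at chr11:105967945-105989964, and its window, at chr11:105967698-105967944, is that of the full-length transcript. Capitals mark matches, on either strand, to the motifs named after the sequences.
Grk5: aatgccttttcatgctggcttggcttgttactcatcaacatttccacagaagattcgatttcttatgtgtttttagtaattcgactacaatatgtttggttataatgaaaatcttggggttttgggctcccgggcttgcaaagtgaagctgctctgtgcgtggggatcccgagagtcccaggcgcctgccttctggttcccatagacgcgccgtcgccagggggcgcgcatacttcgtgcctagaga
Ace: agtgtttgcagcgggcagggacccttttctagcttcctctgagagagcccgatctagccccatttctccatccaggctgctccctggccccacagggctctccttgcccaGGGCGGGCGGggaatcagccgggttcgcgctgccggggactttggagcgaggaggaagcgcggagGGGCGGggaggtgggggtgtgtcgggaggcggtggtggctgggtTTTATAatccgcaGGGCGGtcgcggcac
In the Ace window GGGCGG, the GC box bound by Sp1-type factors, occurred 4 times, with 2 of these overlapping, and TTTATA, the reverse complement of the TATA box TATAAA, occurred once at 31 to 26 bases before the start. Across the 32841 RefSeq windows of the same length, 32.4% held GGGCGG or its reverse complement CCGCCC and 12.3% held TATAAA or its reverse complement. CCAAT or ATTGG (33.7% of windows), the E-box CACGTG (5.95%) and TGACGTCA, the cyclic AMP response element (1.52%), were not in this Ace window. Ace has a second RefSeq entry, not shown, with its window at chr11:105974939-105975185. That window held 1 match, ATTGG at 25 to 21 bases before its start. The Grk5 window held none of the 5 motifs, and its bases were 49.8% G or C against 67.2% in the Ace window shown. A match is a description of letters only.

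The libraries held 45166994 to 68274222 counts each, and the members' counts ran from 64 (Adra1b, control TAC heart 2) to 17709 (Ace). Tarbp2 stood at 30.6 to 33.3 CPM (read counts scaled to the effective library size) in control sham and 21.1 to 31.1 in control TAC hearts, against 8.39 to 11.4 in Trbp-cKO sham and 7.14 to 9.74 in Trbp-cKO TAC hearts. Every library thus matched its label as control or Trbp-cKO. A pair of libraries stood apart. Transcripts of the mitochondrial chromosome took 38.2% and 38.8% of the counts in control TAC hearts 1 and 2, against 18.2% to 26.3% in the other 14 hearts. In those 2 hearts the summed level of 6 cardiomyocyte markers (Myh6, Tnnt2, Actn2, Ryr2, Pln and Tnni3) was 17543 and 13558 CPM, against 35091 and 35429 in control TAC hearts 3 and 4, while 6 endothelial markers summed to 1399 and 1540 CPM against 753 and 721. Fibroblast markers summed to 1184 and 1165 CPM in control TAC hearts 1 and 2, against 702 and 797 in hearts 3 and 4. Trbp-cKO TAC heart 4 also had few cardiomyocyte marker counts (22546 CPM, against 29021 to 35640 in the other Trbp-cKO TAC hearts). Its endothelial sum (1068 CPM, against 622 to 735) and fibroblast sum (1389 CPM, against 965 to 1154) were the highest of its group. In bulk tissue, fewer cells of a type and less RNA per cell cannot be told apart. Fits were also made without control TAC hearts 1 and 2, and without Trbp-cKO TAC heart 4 as well (without the 3 TAC hearts). Both leave control TAC hearts 3 and 4 alone in their group. The hearts were picked after the data were seen, by marker levels with which several members moved. The adjusted p-values of these fits are therefore descriptions and no independent test.

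Levels between genes were compared as CPM per kilobase of annotated exon. In control sham hearts Ace was the most abundant member at 13.4 ± 1.10 CPM per kb (SD, n = 4), followed by Agtr1a at 9.77 ± 0.41. Ednrb (7.22 ± 0.93), Ednra (6.97 ± 0.50), Adra1b (6.89 ± 1.08) and Grk5 (6.63 ± 0.61) came next, and each overlapped its neighbor in this order. Adrb1 (4.05 ± 0.65) and Adra1a (1.45 ± 0.20) were the least abundant and did not overlap each other. In Trbp-cKO TAC hearts the order was Ace (34.9 ± 12.4), Grk5 (13.1 ± 1.82), Ednrb (11.0 ± 6.48), Agtr1a (6.74 ± 2.55), Ednra (5.29 ± 1.18), Adrb1 (2.55 ± 1.07), Adra1b (2.03 ± 0.93) and Adra1a (0.70 ± 0.30). There Ace and the next gene did not overlap, nor did Ednra and Adrb1, and the other neighbors did. Ace was first and Adra1a last in all 4 groups. Grk5 was at rank 6 in control sham, where it overlapped Adra1b, and at rank 2 in Trbp-cKO TAC, where it overlapped Ednrb. Per kilobase of the longest transcript its rank in control sham was 5.

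**Figure D1:**
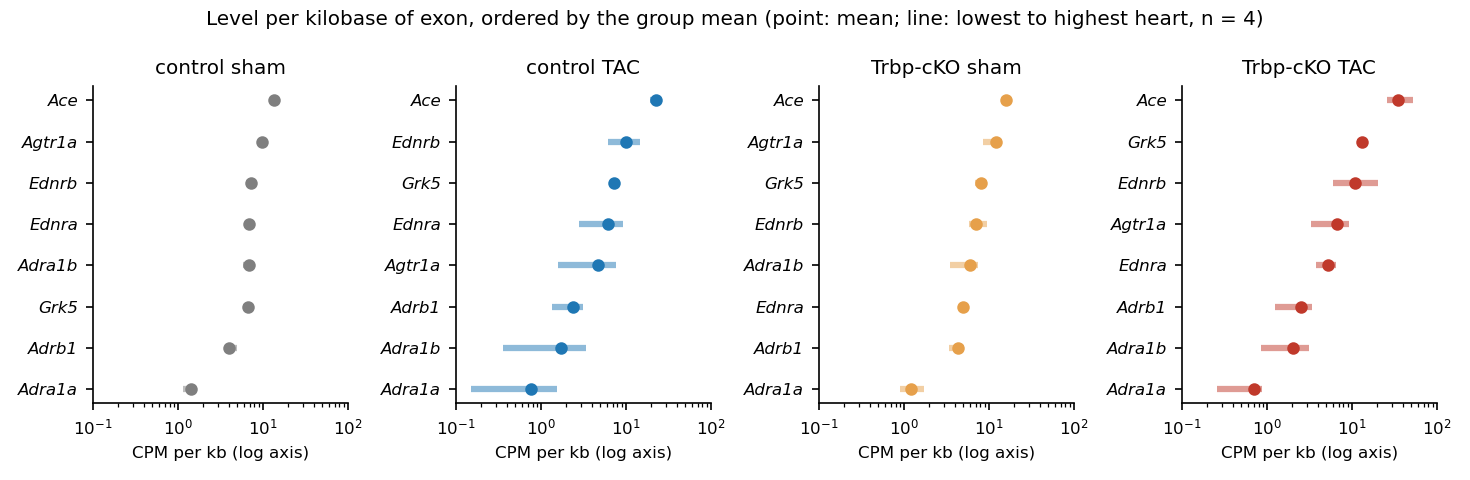
Level of the 8 members in each group as CPM per kilobase of exon on a log axis, ordered by the group mean, where points are means and lines run from the lowest to the highest of 4 hearts. Ace is first and Adra1a last in each group, and the lines of most other neighbors overlap, most widely in control TAC.

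Among the beta receptors, Adrb1 encodes the main cardiac beta-adrenergic receptor, through which catecholamines raise heart rate and force. It measured 12.6, 17.0, 12.4 and 12.8 CPM in the 4 control sham hearts and 6.66, 4.53, 10.6 and 10.5 CPM in the 4 control TAC hearts. These groups did not overlap. Trbp-cKO hearts measured 14.4, 15.3, 11.4 and 17.1 CPM after sham surgery and 6.98, 11.6, 11.6 and 4.27 CPM after TAC, where the highest TAC hearts lay just above the lowest sham heart. With TAC the log2 fold change was -0.76 ± 0.30 (SE) in control hearts and -0.75 ± 0.30 in Trbp-cKO hearts, a level lower by a factor of 1.70 and 1.69, and neither passed the test across all genes (adjusted p = 0.127 and 0.135, edgeR quasi-likelihood). Without control TAC hearts 1 and 2 the control value was -0.38, and without the 3 TAC hearts the Trbp-cKO value was -0.53 (adjusted p = 0.0652). The deletion gave 0.09 ± 0.30 in both sham and TAC hearts, with 95% intervals of -0.49 to 0.67 and -0.49 to 0.68. The latter was -0.30 without control TAC hearts 1 and 2.

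Adra1a and Adra1b encode the alpha1A and alpha1B receptors, the alpha1 subtypes of mouse cardiomyocytes. Adra1b measured 20.4, 26.6, 19.9 and 26.3 CPM in control sham hearts and 1.66, 1.21, 11.5 and 9.37 CPM in control TAC hearts. All 4 TAC hearts lay below all 4 sham hearts, with hearts 1 and 2 several times lower than hearts 3 and 4. Trbp-cKO hearts measured 20.8, 25.4, 11.8 and 22.4 CPM after sham surgery and 7.36, 6.70, 10.6 and 2.91 CPM after TAC, again without overlap. The log2 fold change with TAC was -1.97 ± 0.57 in control hearts, a level lower by a factor of 3.92, and the adjusted p was 0.0508, just above the threshold of 0.05. It was -1.55 ± 0.56 in Trbp-cKO hearts, a factor of 2.92 (adjusted p = 0.101). The exact permutation test of CPM gave p = 0.0286 for each, the smallest that 4 against 4 hearts allow. Over the alternatives the adjusted p ran from 0.0163 (DESeq2) to 0.252 (without control TAC hearts 1 and 2, where the value was -1.16) in control hearts. It passed in 7 of 26 settings there, among them the fit without control TAC heart 3 (0.0193). In Trbp-cKO hearts the adjusted p ran from 5.96e-04 (edgeR exact test) to 0.214 (no filter on low counts), and passed in 5 of 26 settings. The quasi-likelihood fits among these were that of the 2 groups alone (0.0253), those without control TAC heart 2 (0.0431), without control TAC hearts 1 and 2 (0.00447) and without the 3 TAC hearts (0.0032, with a value of -1.29). Whether Adra1b passed thus rested on the hearts kept as well as on the test. The interaction of deletion and TAC was 0.43 ± 0.78 for Adra1b (adjusted p = 0.834), and -0.39 without control TAC hearts 1 and 2.

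Adra1a measured 14.2, 13.2, 10.2 and 13.0 CPM in control sham hearts, and 1.98, 1.31, 10.0 and 13.5 CPM in control TAC hearts. Hearts 1 and 2 alone were low, and hearts 3 and 4 lay within or just under the sham range. In Trbp-cKO hearts it measured 7.95, 15.2, 7.88 and 11.5 CPM after sham surgery and 7.56, 6.96, 7.77 and 2.26 CPM after TAC, with no overlap but a gap of little size. With TAC the log2 fold change of Adra1a was -0.91 ± 0.56 in control hearts (adjusted p = 0.302), and -0.10 without hearts 1 and 2. In Trbp-cKO hearts it was -0.80 ± 0.56 (adjusted p = 0.453), and -0.52 (adjusted p = 0.113) without the 3 TAC hearts. The deletion gave -0.25 ± 0.56 in sham and -0.13 ± 0.56 in TAC hearts. The latter was -0.95 (adjusted p = 0.191) without control TAC hearts 1 and 2 and -0.68 (adjusted p = 0.145) without the 3 TAC hearts.

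Agtr1a encodes the type 1a angiotensin II receptor, the main angiotensin II receptor of the mouse heart and vessels. It measured 25.7, 27.8, 28.3 and 26.9 CPM in control sham hearts. Control TAC hearts measured 5.67, 4.50, 21.0 and 21.2 CPM, all below the sham hearts. Trbp-cKO sham hearts measured 35.6, 40.1, 24.0 and 36.4 CPM, and Trbp-cKO TAC hearts 17.6, 25.5, 22.6 and 9.29 CPM, where heart 2 lay above the lowest sham heart. The log2 fold change with TAC was -1.05 ± 0.43 in control hearts, a factor of 2.08 (adjusted p = 0.136), and -0.37 without hearts 1 and 2. It was -0.86 ± 0.42 in Trbp-cKO hearts, a factor of 1.81 (adjusted p = 0.244). The latter passed in 3 of 26 settings. These were the edgeR exact test on the groups alone (adjusted p = 0.0335), the fit without control TAC hearts 1 and 2 (0.0250), both with the same fold change, and the fit without the 3 TAC hearts (0.0119), where the value was -0.64. The deletion gave 0.32 ± 0.42 in sham hearts (95% interval -0.50 to 1.14) and 0.52 ± 0.42 in TAC hearts (-0.31 to 1.35), and neither passed. The latter was -0.18 without control TAC hearts 1 and 2, and 0.05 without the 3 TAC hearts.

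Ace encodes angiotensin-converting enzyme, an endothelial ectoenzyme that makes angiotensin II and degrades bradykinin. It rose with TAC in both genotypes. It measured 68.3, 64.4, 73.9 and 77.5 CPM in control sham hearts, and 115, 124, 102 and 138 CPM in control TAC hearts. It measured 73.9, 86.8, 94.0 and 79.2 CPM in Trbp-cKO sham hearts, and 168, 137, 152 and 281 CPM in Trbp-cKO TAC hearts. In each genotype every TAC heart lay above every sham heart, and Trbp-cKO TAC heart 4 was the highest of the 16. The log2 fold change was 0.75 ± 0.19 in control hearts, a 1.69-fold rise (adjusted p = 0.0301), which is under the fold-change threshold of 0.8 used by the study. It was 1.14 ± 0.19 in Trbp-cKO hearts, a 2.21-fold rise (adjusted p = 0.00116). The latter held in each of 26 alternative settings, with adjusted p from 1.90e-07 to 0.0119, and stood at 0.87 without Trbp-cKO TAC heart 4 and control TAC hearts 1 and 2. The former passed in 19 of 26 settings, with adjusted p from 3.29e-04 (edgeR exact test) to 0.174 (without control TAC hearts 1 and 2, where the value was 0.76). It also missed the threshold when any of the 4 control sham hearts, control TAC heart 1 or control TAC heart 2 was left out singly, with values of 0.71 to 0.79.

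Between genotypes, Ace stood 0.63 ± 0.19 higher on the log2 scale in Trbp-cKO TAC than in control TAC hearts (1.54-fold), with an adjusted p of 0.0646. The groups overlapped, since the highest control TAC heart (138 CPM) lay above the lowest Trbp-cKO TAC heart (137 CPM). This difference passed in 4 of 26 settings, with an adjusted p from 0.0126 (DESeq2) to 0.292 (the 2 groups alone), and without the 3 TAC hearts it was 0.34 (adjusted p = 0.211). In sham hearts the difference was 0.23 ± 0.19 (adjusted p = 0.665). The interaction, which asks whether the rise with TAC differed between genotypes, was 0.39 ± 0.26 (adjusted p = 0.505), with a 95% interval of -0.13 to 0.91. The annotated exons of Ace overlap those of Gm11651 on the opposite strand over 295 bases, and 2.82% of its sequence is shared with that gene. The strand setting of the counting is not given in the sources used here.

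The endothelin receptors followed separate patterns. Ednra encodes the endothelin A receptor of smooth muscle and cardiomyocytes, which mediates constriction and growth. It measured 36.4, 38.8, 41.8 and 35.7 CPM in control sham hearts and 26.0, 26.8, 26.9 and 28.1 CPM in Trbp-cKO sham hearts. Every Trbp-cKO sham heart lay below every control sham heart. The log2 difference was -0.50 ± 0.29, a level lower by a factor of 1.42, and did not pass in the fit across all 16 hearts (adjusted p = 0.494). It passed in fits of the 8 sham hearts alone, with an adjusted p of 0.0049 by the quasi-likelihood test and 6.41e-05 by the edgeR exact test, and with the same fold change. Without the 3 TAC hearts named above the difference was -0.51 (adjusted p = 0.00297). The annotated exons of Ednra overlap those of 4933431K23Rik on the opposite strand over 91 bases, and 0.389% of its sequence is shared with that gene.

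After TAC, Ednra measured 20.7, 15.5, 46.2 and 51.5 CPM in control hearts and 35.5, 32.3, 27.5 and 20.6 CPM in Trbp-cKO hearts. Control TAC heart 2 was the lowest of all 16, followed by Trbp-cKO TAC heart 4 and control TAC heart 1, and control TAC hearts 3 and 4 were the highest. In control hearts the log2 fold change with TAC was -0.19 ± 0.29 with all hearts (adjusted p = 0.703) and 0.36 without hearts 1 and 2. In Trbp-cKO hearts it was 0.10 ± 0.29 (adjusted p = 0.887). The difference between Trbp-cKO TAC and control TAC hearts was -0.21 ± 0.29 (adjusted p = 0.718) with all hearts. It was -0.77 (adjusted p = 0.0139) without control TAC hearts 1 and 2 and -0.63 (adjusted p = 0.00333) without the 3 TAC hearts. This comparison thus rests on which hearts are kept. The 3 hearts left out were the 3 lowest of the 16 for Ednra, so these fits give no independent test of it.

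Ednrb encodes the endothelin B receptor, found on endothelium, where it clears endothelin and releases nitric oxide, and on other cells. It measured 27.4, 28.1, 36.0 and 31.7 CPM in control sham hearts and 49.3, 63.2, 30.5 and 26.6 CPM in control TAC hearts. The first 2 TAC hearts were above all sham hearts, and the others were within or below the sham range. Trbp-cKO sham hearts measured 25.8, 25.0, 40.6 and 30.4 CPM, and Trbp-cKO TAC hearts 41.0, 32.9, 26.0 and 87.2 CPM, of which heart 4 was the highest of the 16. The log2 fold change with TAC was 0.46 ± 0.34 in control (adjusted p = 0.379) and 0.62 ± 0.34 in Trbp-cKO hearts (adjusted p = 0.300). It was -0.11 in control hearts without hearts 1 and 2, and 0.13 in Trbp-cKO hearts when Trbp-cKO TAC heart 4 was left out as well. The deletion gave -0.02 ± 0.34 in sham and 0.14 ± 0.33 in TAC hearts. The latter was 0.70 (adjusted p = 0.349) without control TAC hearts 1 and 2 and 0.21 without the 3 TAC hearts.

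Grk5 encodes a receptor kinase abundant in the heart, which also acts in the nucleus as a histone deacetylase kinase. Its level was highest in hearts with both the deletion and TAC. It measured 41.8, 47.7, 52.1 and 45.5 CPM in control sham hearts, and 56.6, 52.1, 48.6 and 49.1 CPM in control TAC hearts. It measured 51.4, 67.6, 48.7 and 63.3 CPM in Trbp-cKO sham hearts, and 101, 81.4, 106 and 82.0 CPM in Trbp-cKO TAC hearts. The 4 Trbp-cKO TAC hearts lay above the other 12, and the other 3 groups overlapped with each other. Trbp-cKO TAC exceeded control TAC hearts by 0.84 ± 0.13 on the log2 scale, a 1.80-fold difference (adjusted p = 0.00139). It exceeded Trbp-cKO sham hearts by 0.68 ± 0.13, a 1.61-fold difference (adjusted p = 0.0027), under the fold-change threshold of 0.8. Both passed the adjusted p in each of 26 alternative settings, the first with log2 values of 0.78 to 0.99 and the second with 0.61 to 0.77.

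TAC in control hearts gave 0.14 ± 0.13 for Grk5 (adjusted p = 0.480, 95% interval -0.11 to 0.39), and the deletion in sham hearts gave 0.30 ± 0.13 (unadjusted p = 0.0290, adjusted p = 0.283). The interaction was 0.54 ± 0.18, with an unadjusted p of 0.00834 and an adjusted p of 0.160. DESeq2 alone of the 24 settings for the interaction placed it under the threshold, with an adjusted p of 0.0486. Grk5 did not follow the hearts that stood apart. Its levels in control TAC hearts 1 and 2 were 56.6 and 52.1 CPM, beside 48.6 and 49.1 CPM in hearts 3 and 4. The difference between Trbp-cKO TAC and control TAC was 0.91 without control TAC hearts 1 and 2 and 0.97 without Trbp-cKO TAC heart 4 as well, both past the test (adjusted p = 0.00608 and 0.00249). Of the Grk5 exon sequence, 1.51% is shared with Gm16284.

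**Figure D2:**
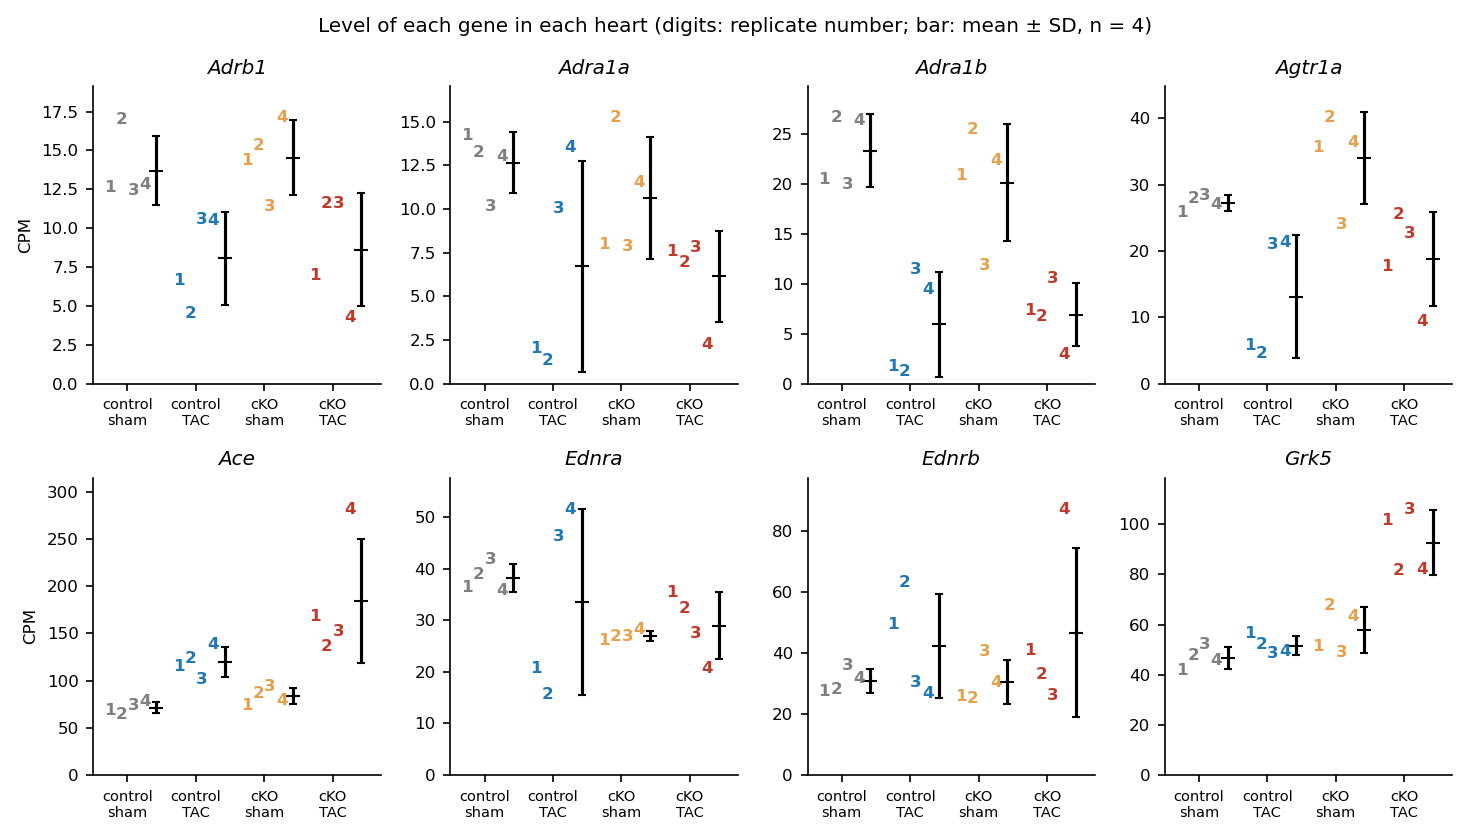
CPM of each member in each heart on a linear axis from 0, with digits giving the replicate number within its group and bars the mean ± SD of 4 hearts. Control TAC hearts 1 and 2 sit apart from hearts 3 and 4 for Adrb1, Adra1a, Adra1b, Agtr1a, Ednra and Ednrb, whereas the 4 Trbp-cKO TAC hearts of Grk5 (81.4 to 106 CPM) sit above all others.

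Counted over the 8 members, with TAC in control hearts 0 were called by adjusted p and fold change together, against 3.75% of all genes tested, and 1 passed the adjusted p alone (Ace, higher), against 6.29%. An unadjusted p under 0.05 was found for 4 of the 8 (Ace higher, and Adrb1, Adra1b and Agtr1a lower), against 26.6% of all genes. DESeq2 called 1, against 6.00% of the genes it tested, and the edgeR exact test 1, against 4.91%. For TAC in Trbp-cKO hearts 1 was called (Ace, higher), against 5.57%, and 2 passed the adjusted p (Ace and Grk5, both higher), against 9.94%. There 2 of the 8 higher and 2 lower had an unadjusted p under 0.05, against 23.0% of all genes. For the deletion in TAC hearts 1 was called (Grk5, higher), against 2.46%, and the same gene alone passed the adjusted p, against 5.53%. For the deletion in sham hearts 0 were called, against 0.967%, and 0 passed the adjusted p, against 1.68%. There Grk5 alone had an unadjusted p under 0.05, against 13.7% of all genes. DESeq2 passed 0 members, against 4.53%, and the edgeR exact test passed 1 (Ednra), against 8.69%. For the interaction 0 were called, against 0.872%, and 0 passed, against 1.05%, with Grk5 alone at an unadjusted p under 0.05, against 15.4%, and alone past the adjusted p by DESeq2, against 5.17%. The median log2 fold change of the members was -0.48 for TAC in control hearts and -0.33 for TAC in Trbp-cKO hearts, beside 0.03 and 0.00 for all genes tested. It was 0.04 for the deletion in sham hearts and 0.18 for the deletion in TAC hearts, beside 0.01 and -0.01 for all genes. For the interaction it was 0.24, beside -0.01. These medians rested on the hearts kept. Without control TAC hearts 1 and 2 the members' median was -0.10 for TAC in control hearts, -0.24 for the deletion in TAC hearts and -0.32 for the interaction. Without the 3 TAC hearts it was -0.10, -0.01 and -0.13 for these, and -0.20 for TAC in Trbp-cKO hearts.

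**Figure D3:**
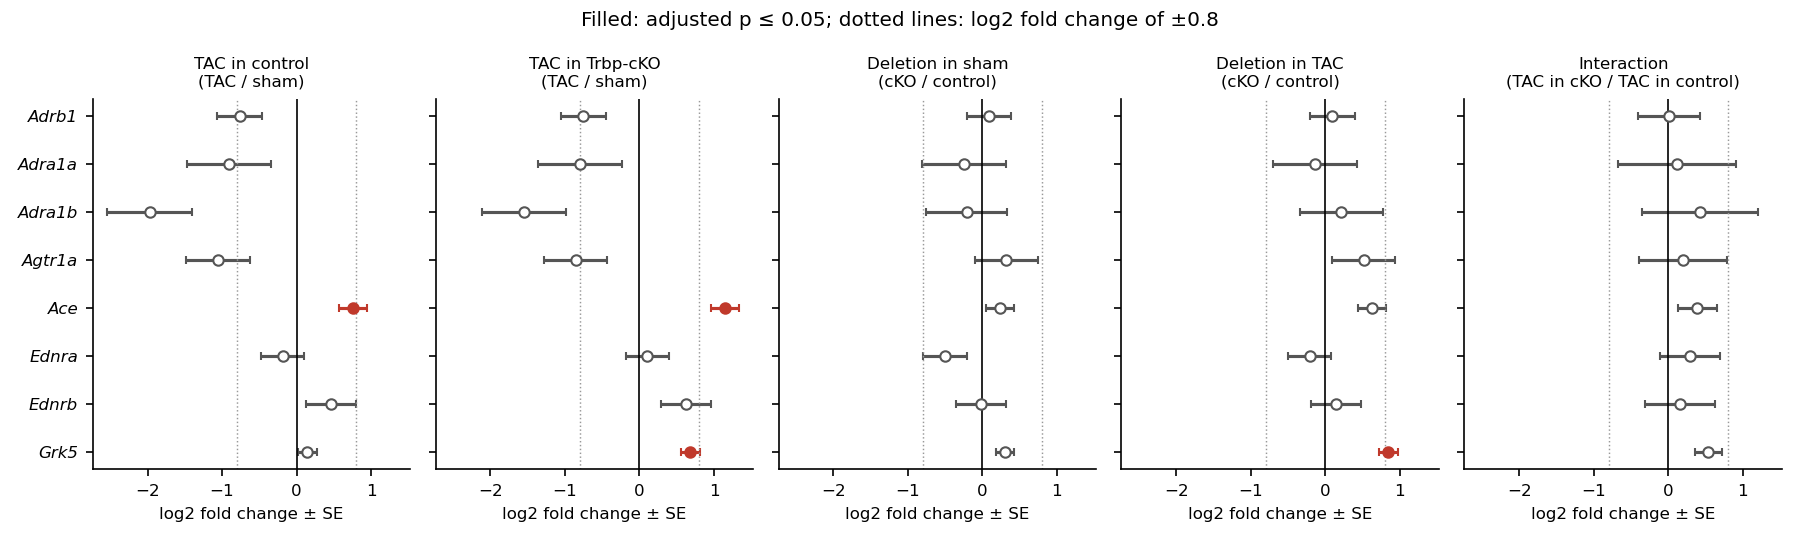
Log2 fold change ± SE of the 8 members in the 4 comparisons and the interaction, from the fit across 16 hearts, with filled points for adjusted p at or under 0.05 and dotted lines at ±0.8. Ace is filled in both TAC comparisons (0.75 and 1.14) and Grk5 in the comparisons that involve Trbp-cKO TAC hearts (0.68 and 0.84), and the receptors are open in all 5 panels.

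The members split by how they varied from heart to heart. Over the 16 hearts, Adrb1, Adra1a, Adra1b and Agtr1a had pairwise Pearson r of log2 CPM from 0.87 (Adrb1 and Adra1a) to 0.95 (Adra1b and Agtr1a), and r stayed between 0.82 and 0.97 after the group means were removed. Ednrb ran against them, with r of -0.79 (Adra1b) to -0.89 (Adrb1). Ednra followed them more loosely (0.55 to 0.80 over all hearts, 0.72 to 0.93 after the group means were removed). Ace also ran against the first 4 genes (-0.54 to -0.76 over all hearts, -0.35 to -0.70 after the group means were removed). Grk5 was at -0.08 to -0.28 against these 4 genes over all hearts and at 0.03 to 0.17 once group means were removed. Ace and Grk5 had an r of 0.70 over the 16 hearts and -0.18 within groups. These values are descriptions over hearts that share groups. Without the 3 hearts with few cardiomyocyte marker counts, r over the remaining 13 ranged from 0.36 (Adra1a and Agtr1a) to 0.86 (Adrb1 and Agtr1a) among the first 4 genes, from -0.40 to -0.55 between them and Ednrb, and from -0.54 to 0.34 between them and Ednra. Over those 13 hearts r with the first 4 genes was -0.53 to -0.90 for Ace and -0.22 to -0.56 for Grk5, and 0.75 between Ace and Grk5.

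The genes whose log2 CPM was most like that of each member over the 16 hearts were different for each of the 8 members. For Adra1a they were Myh6, the alpha myosin heavy chain of cardiomyocytes (r = 0.975), Ivd (0.974) and Dcaf11 (0.973). For Adra1b they were Mlycd, the malonyl-CoA decarboxylase (0.990), Agpat3 (0.988) and Dglucy (0.988). For Agtr1a they were Tmem246 (0.986), Asb10 (0.986) and Gmpr (0.985), and for Adrb1 Aldh5a1 (0.963), Ldhd (0.952) and Lrrc15 (0.952). For Ace they were Col5a1, a fibrillar collagen chain (0.981), Rab31 (0.973) and Ssc5d (0.969). For Ednra they were Tcta (0.955), Ints4 (0.942) and Perp (0.939), and for Ednrb Cnn3 (0.940), Adarb1 (0.940) and Plcb1 (0.932). For Grk5 they were Uhmk1 (0.962), Trim44 (0.941) and Ero1l (0.934), whose r within groups was 0.80, 0.62 and 0.45.

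**Figure D4:**
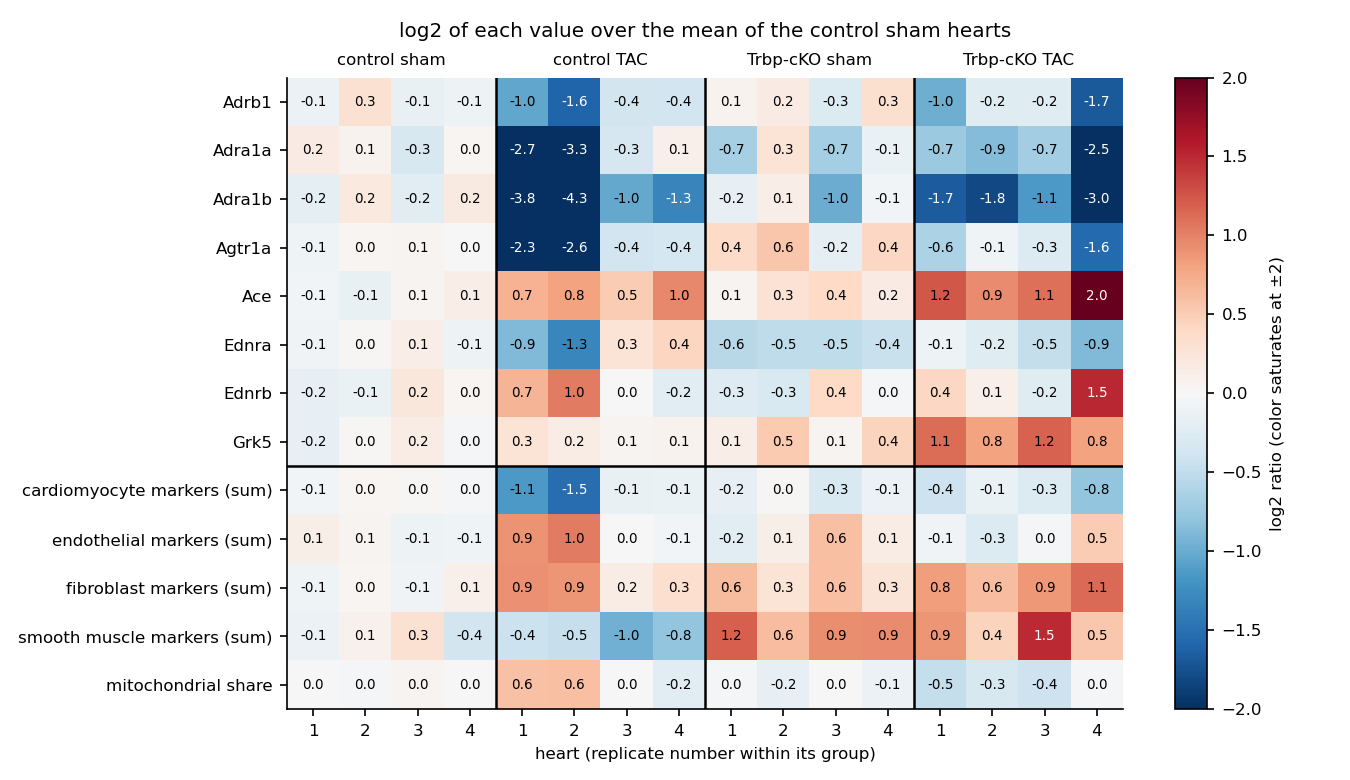
Log2 of the CPM of each member, of the summed CPM of 4 cell type marker lists and of the mitochondrial share of counts in each of the 16 hearts, over the mean of the control sham hearts, with color saturating at ±2. In control TAC hearts 1 and 2 and Trbp-cKO TAC heart 4 the cardiomyocyte sum, Adrb1, Adra1a, Adra1b, Agtr1a and Ednra are low together and Ednrb is high, while Grk5 is raised in all 4 Trbp-cKO TAC hearts.

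Cell type markers moved with some of these results. The cardiomyocyte sum ran from 37510 to 40124 CPM in control sham, 13558 to 35429 in control TAC, 31587 to 39597 in Trbp-cKO sham and 22546 to 35640 in Trbp-cKO TAC hearts, with 0 of 6 markers passing the test for TAC in control and 1 of 6, lower, in Trbp-cKO hearts. The endothelial sum ran from 701 to 817, 721 to 1540, 647 to 1140 and 622 to 1068 CPM in the same order, with 1 of 6 higher with TAC in control and none in Trbp-cKO hearts. The fibroblast sum (Pdgfra, Dcn, Lum, Tcf21, Col1a1 and Dpt) ran from 596 to 676, 702 to 1184, 750 to 975 and 965 to 1389 CPM, with 2 of 6 higher with TAC in control hearts (Col1a1 and Lum) and 1 of 6 in Trbp-cKO hearts (Col1a1). Col1a1 alone of the 6 was higher in Trbp-cKO TAC than in control TAC hearts, and the median of the list there was -0.04 on the log2 scale. Lum alone passed higher for the deletion in sham hearts, where the median of the list was 0.45, and lower for the interaction, where it was -0.46. Smooth muscle markers (Myh11, Acta2, Tagln, Cnn1 and Mylk) summed to 238 to 378, 157 to 227, 469 to 698 and 417 to 857 CPM. Acta2 was the most abundant of them, with means of 219.8, 91.2, 498.6 and 465.8 CPM, and passed lower with TAC in control hearts and higher with the deletion in sham and in TAC hearts. The other 4 markers had higher means in control TAC than in control sham hearts, none past the test, and the median of the list was 0.20 for that comparison. Cnn1 and Tagln passed higher with TAC in Trbp-cKO hearts, and Cnn1 also for the deletion in TAC hearts. Pericyte markers summed to 173 to 258 CPM over the 16 hearts, with members that went in opposite directions. With TAC in Trbp-cKO hearts Cspg4 passed higher and Kcnj8 and Vtn lower, and with TAC in control hearts Cspg4 alone passed, higher. For the deletion in TAC hearts Cspg4 passed higher and Vtn lower. Macrophage markers summed to 168 to 229 CPM, and 0 of 5 passed in any comparison. Of the nerve and Schwann cell markers, Th, which makes catecholamines in sympathetic neurons, was under 0.5 CPM in every heart. Dbh, which converts dopamine to noradrenaline, had means of 2.55, 0.87, 2.62 and 0.74 CPM in the same order of groups and passed lower with TAC in both genotypes (-1.55 ± 0.34, adjusted p = 0.0183, and -1.82 ± 0.35, adjusted p = 0.00335). With TAC in control hearts Dbh was the only 1 of the 4 tested markers to pass, and the median of the list was 0.075. The list summed to 39.1 to 75.4, 36.3 to 89.1, 50.0 to 95.5 and 38.1 to 69.7 CPM in the same order of groups. Cdh19 and Sox10 also passed lower with TAC in Trbp-cKO hearts, so that 3 of 4 tested markers did, beside 9.94% of all genes. The median of the list there was -1.02. For the deletion Cdh19 passed higher in sham and lower in TAC hearts. The part of cell makeup in the members' differences was not tested.

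The wider pathway was described with 59 genes in 5 lists, of which 54 were tested. With TAC in control hearts 3 passed the adjusted p higher (Ace, Grk4 and Plcb4) and 1 lower (Adcy6), beside 6.29% of all genes tested. With TAC in Trbp-cKO hearts 7 passed higher and 4 lower, beside 9.94%. For the deletion 0 passed in sham hearts, beside 1.68%, and 2 higher and 1 lower had an unadjusted p under 0.05, beside 13.7% of all genes. In TAC hearts 2 passed higher (Grk5 and Prkar1a) and 0 lower, beside 5.53%. For the interaction 1 passed higher (Prkar1a) and 0 lower, beside 1.05%. Some of these counts rested on the fit. Without control TAC hearts 1 and 2 the deletion in TAC hearts also passed for Ednra (-0.77, adjusted p = 0.0139), Mme (-1.35, adjusted p = 0.00761) and Ece2 (1.22, adjusted p = 0.00608). In that fit 829 of all 20821 genes tested passed for this comparison. Of the 7 genes tested in the list of adrenergic receptors, 3 of them members, 0 passed in any comparison in the quasi-likelihood fit of all 16 hearts, and Adra1b passed in the other fits given above. An unadjusted p under 0.05 was found for 2 of these 7 with TAC in control hearts, against 26.6% of all genes, and for 3 with TAC in Trbp-cKO hearts, against 23.0%, all lower.

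In the renin-angiotensin list of 12 tested genes, 3 besides Ace were called with TAC in Trbp-cKO hearts, all lower, beside 5.57% of all genes tested. Mme, neprilysin, which degrades natriuretic and angiotensin peptides, fell from 7.86, 8.60, 8.56 and 7.15 CPM to 1.99, 2.82, 4.52 and 2.02 CPM, a log2 change of -1.50 ± 0.29 (adjusted p = 0.00386). Mas1, the receptor for angiotensin 1-7, changed by -1.01 ± 0.27 (adjusted p = 0.0261) at levels of 0.61 to 1.66 CPM, and passed in 20 of 26 settings, with an adjusted p of up to 0.0730 when Trbp-cKO sham heart 1 was left out. Nr3c2, the mineralocorticoid receptor, changed by -0.93 ± 0.27 (adjusted p = 0.0426). It passed in 12 of 26 settings, with an adjusted p of up to 0.111 when Trbp-cKO TAC heart 3 was left out, and control TAC hearts 1 and 2 again stood apart for it, at 7.57 and 6.92 CPM beside 19.2 and 17.2 CPM. Without the 3 TAC hearts the values of Mme, Mas1 and Nr3c2 were -1.36, -1.04 and -0.90, all past the test. Agt, angiotensinogen, fell by 0.43 on the log2 scale (adjusted p = 0.0468), under the fold-change threshold.

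In the endothelin list 2 of 6 tested genes were called with TAC in Trbp-cKO hearts, both higher, beside 5.57% of all genes tested. Edn3, endothelin 3, rose there by 2.05 ± 0.46 (adjusted p = 0.00979), from 0.39, 0.98, 1.05 and 0.83 CPM to 2.67, 5.51, 4.63 and 0.87 CPM. Heart 4 stayed within the sham range, and without the 3 TAC hearts the value was 2.37. Control TAC hearts measured 3.23 to 6.56 CPM, above the control sham hearts, and that rise did not pass with all 16 hearts. It was 1.05 by the edgeR exact test (adjusted p = 0.0153). It was 1.40 without control TAC hearts 1 and 2 (adjusted p = 0.285) and without the 3 TAC hearts (adjusted p = 0.0415). In sham hearts Edn3 was at 1.43 to 2.75 CPM in control and 0.39 to 1.05 CPM in Trbp-cKO hearts, with no overlap. That difference of -1.46 ± 0.46 did not pass with all 16 hearts (adjusted p = 0.136). It passed in the fit of the sham hearts alone (0.0208), by the edgeR exact test (3.26e-04), by DESeq2 (0.0294) and without the 3 TAC hearts (0.0113). Ece2, an endothelin-converting enzyme, rose with TAC in Trbp-cKO hearts by 1.00 ± 0.24 (adjusted p = 0.0156) with no overlap, at levels of 1.64 to 4.67 CPM, and by 1.01 without the 3 TAC hearts. It missed the threshold when Trbp-cKO sham heart 2 was left out (adjusted p = 0.0567). Edn1, the main endothelin of the vessel wall, measured 2.18 to 9.29 CPM and passed in no comparison, with Trbp-cKO TAC heart 4 the highest.

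Among the kinases and arrestins, Grk4 rose with TAC in Trbp-cKO hearts by 1.21 ± 0.19 (adjusted p = 6.60e-04) and in control hearts by 0.77 ± 0.19 (adjusted p = 0.0259), at 0.91 to 3.55 CPM. The former passed in 26 of 26 settings. The latter passed in 16 of 26, with an adjusted p of up to 0.246 without control TAC hearts 1 and 2. Arrb1, beta-arrestin 1, rose by 0.53 ± 0.12 in Trbp-cKO hearts (adjusted p = 0.0111), with 0.42 ± 0.12 (adjusted p = 0.0508) in control hearts. Grk2, the other main receptor kinase of the heart, measured 55.2 to 71.3 CPM and passed in no comparison. Of the effectors, Prkar1a, the type 1 alpha regulatory subunit of protein kinase A, was called in both comparisons in which Grk5 passed, and in the interaction. It measured 321, 308, 411 and 523 CPM in control TAC and 774, 797, 975 and 707 CPM in Trbp-cKO TAC hearts, a log2 difference of 1.06 ± 0.18 (adjusted p = 0.0029). This was 0.79 without control TAC hearts 1 and 2 and 0.85 without the 3 TAC hearts, both past the test, and missed it in the fit of the 2 groups alone (adjusted p = 0.0935). With TAC in Trbp-cKO hearts it rose by 0.99 ± 0.18 (adjusted p = 0.00193), and the interaction was 1.18 ± 0.25 (adjusted p = 0.0356), which passed in 7 of 24 settings. These lists were chosen with earlier results of the data known, and their counts are descriptions.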

How the data were processed

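Ventricular RNA of 16 mouse hearts was isolated with TRIzol, selected with oligo(dT) beads and sequenced by GENEWIZ as paired 150-base reads. Per the submitters' processing notes and the study's methods, reads were trimmed with Cutadapt 2.3, checked with FastQC, aligned to GRCm38 with HISAT2 2.1.0 and assembled with StringTie 1.3.4, and the StringTie script prepDE wrote the deposited gene counts. That script derives counts from coverage and an assumed read length, whose setting is not given in the sources used here. If its default of 75 was kept, counts are 2 times too large, so halved counts were tried. The 16 columns of the table matched the 16 samples by the library name in each sample's description.

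Genes were annotated with GENCODE M21 (GRCm38). Counts were filtered (filterByExpr), scaled by TMM and fitted with 4 group means over 16 hearts in edgeR 4.0.16 (R 4.3.3, limma 3.58.1), using robust quasi-likelihood tests and Benjamini-Hochberg adjustment over 19955 genes. A gene was called at adjusted p at or under 0.05 and a log2 fold change of at least 0.8, the thresholds of the study, which names a Fisher's exact test. CPM used TMM-adjusted library sizes. Log2 CPM used a prior count of 2. Single genes were also compared with two-sided exact permutation tests over 70 assignments (Python 3.11.15, SciPy 1.17.1). The scripts were tested on simulated data.

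Alternatives were library-size scaling, fits of the compared groups alone, the edgeR exact test, DESeq2 1.42.0, 2 other filters, halved counts, a replicate block, other fold-change thresholds and each heart left out. Fits without control TAC hearts 1 and 2, and without Trbp-cKO TAC heart 4 as well, were added after seeing the data. The members and lists were chosen with earlier results of these data known. A few genes of the pathway and marker lists are not reported here and were left out of the lists' counts. All members are named, pathway genes are named if called in any comparison or to complete a list's count (Agt, Arrb1, Adcy6, Plcb4), and Edn1 and Grk2 were named after their values were seen. For each member the 3 genes of highest Pearson r, with a mean log2 CPM of at least 1, are named.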

Additional observations from a re-analysis of the deposited data

Results flagged for a closer look

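A gap test for a heart far from the others of its group (Dixon's test for groups of 4) was applied to 32 sets, the 8 members in 4 groups. It picked out control sham heart 2 for Adrb1 (17.0 CPM, the others at 12.4 to 12.8 CPM) and Trbp-cKO TAC heart 4 for Adra1a (2.26 CPM, the others at 6.96 to 7.77 CPM). Chance picks out about 1 in 20 such sets.

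The response to TAC differed between genotypes in the fit of all 16 hearts, by the test of the interaction itself, for the pathway gene Prkar1a (1.18 on the log2 scale, adjusted p = 0.0356). This passed in 7 of 24 settings. Without control TAC hearts 1 and 2 it became 0.92 (adjusted p = 0.0770), and the highest adjusted p with a single heart left out was 0.0994 (without control sham heart 3).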

How the results depend on the processing

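Of 1024 values of the members under alternative settings, 935 kept their direction and their side of the adjusted p threshold, 7 lost and 25 gained it, and 57 changed sign, all of them for values that had not passed. Of 232 values of the pathway genes called outside the members, each in the comparison where it was called, 193 kept both and 39 lost the threshold. The cause of these changes was not tested.

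The number of members called for TAC in control hearts rose from 0 to 1 with the edgeR exact test, DESeq2, the 1 CPM filter and halved counts (Adra1b in each) and without a fold-change threshold (Ace). Over all genes, 748 of 19955 were called in the main fit, and 1256 passed without a fold-change threshold. The exact test called 929 of 18914, DESeq2 1088 of 18126, the 1 CPM filter 722 of 15071 and halved counts 793 of 17950. Leaving out single hearts gave 0 to 2 members called. There were 2 without control TAC replicate 3, and 1 without control TAC replicate 4 or Trbp-cKO TAC replicate 4. Over all genes these fits called 1440 of 20244, 1583 of 20370 and 1014 of 20300 in that order. For the deletion in TAC hearts the members called fell from 1 to 0 at a fold-change threshold of 1. Single hearts gave 0 to 1, with 0 without Trbp-cKO TAC replicate 3. Without that heart 369 of 20220 genes were called, beside 491 of 19955 in the main fit. For TAC in Trbp-cKO hearts the members called rose from 1 to 2 in the fit of those 2 groups, without a fold-change threshold and without the 3 TAC hearts. They rose to 3 with the edgeR exact test and without control TAC hearts 1 and 2. Single hearts gave 1 to 2, with 2 without control TAC replicate 2. Over all genes, 1112 of 19955 were called in the main fit, and 1983 passed without a fold-change threshold. The 2 groups alone gave 1077 of 19053, the fit without the 3 TAC hearts 1235 of 20635 and the exact test 1378 of 19053. The fit without control TAC hearts 1 and 2 gave 1374 of 20821, and that without control TAC replicate 2 gave 1223 of 20284. Single hearts left 0 in the other 2 comparisons. Over all genes those fits called 74 of 20223 to 268 of 20300 for the deletion in sham hearts. For the interaction they called 57 of 20254 to 397 of 20370.

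Without control TAC hearts 1 and 2 the values that changed sign were those of Adrb1 (-0.30), Adra1b (-0.61) and Agtr1a (-0.18) for the deletion in TAC hearts, of Ednra (0.36) and Ednrb (-0.11) for TAC in control hearts, and of Adrb1 (-0.38), Adra1a (-0.70), Adra1b (-0.39), Agtr1a (-0.50) and Ednra (-0.26) for the interaction. Without Trbp-cKO TAC heart 4 as well they were Adrb1 (-0.07) and Adra1b (-0.35), Ednra (0.36) and Ednrb (-0.11), and Adrb1 (-0.15), Adra1a (-0.42), Adra1b (-0.13), Agtr1a (-0.27) and Ednra (-0.12) in the same comparisons. The interaction for Adrb1 was -0.01 with the 1 CPM filter, and the deletion in sham hearts gave 0.09 for Ednrb with library-size scaling. Leaving out single hearts gave, for the deletion in TAC hearts, -0.48 to 0.46 for Adra1a, -0.13 to 0.74 for Adra1b, -0.11 to 0.32 for Adrb1, -0.46 to 0.08 for Ednra and -0.35 to 0.39 for Ednrb. It gave, for the interaction, -0.23 to 0.71 for Adra1a, -0.19 to 0.23 for Adrb1, -0.09 to 0.53 for Agtr1a and -0.33 to 0.42 for Ednrb. It gave 0.00 to 0.20 for Adrb1 and -0.19 to 0.07 for Ednrb for the deletion in sham hearts, and for Ednra -0.47 to 0.05 for TAC in control and -0.01 to 0.24 for TAC in Trbp-cKO hearts.

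Library-size scaling moved the median of all genes to 0.11 for the deletion in sham hearts and 0.13 in TAC hearts, and the genes passing higher from 203 of 336 to 457 of 552 and from 774 of 1103 to 1844 of 2026. Same-numbered hearts did not deviate together over all genes (r from -0.43 to 0.21), which gave no sign that the numbers pair the hearts. A weak shared factor could go unseen in these values. The replicate block left the members called at 0, 0, 1, 1 and 0 in the order of control TAC, deletion in sham, deletion in TAC, Trbp-cKO TAC and interaction, gave the interaction of Adrb1 as -0.03 and the deletion in TAC hearts as 0.03 for Adra1a, and gave 383, 107, 274, 859 and 54 calls over all genes, where the fit without it gave 748, 193, 491, 1112 and 174. Per longest transcript in place of all exons, 9 of 32 ranks of the members by level changed. Adra1a and Adra1b, with 64 to 91 counts in their lowest hearts, had the fewest counts.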

Other observations

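Several further receptors and ligands were at or near 0 in these ventricles. Agtr1b, the second type 1 angiotensin II receptor gene of the mouse, had 0 counts in each of the 16 libraries, and a count of 0 allows up to 3 counts, or 0.0428 to 0.0681 CPM by library. Agtr2, the type 2 receptor, did not exceed 0.0571 CPM, Edn2 0.0331 CPM and Adrb3, the beta3 receptor, 0.114 CPM in any heart.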
